A study of Homo sapiens with 6 samples.

Results

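Actins and their smooth muscle partners were followed in HEK293 cells, a line from human embryonic kidney, with and without an intact STAT5B gene. The 10 genes are the actins ACTB, ACTG1, ACTA2 and ACTG2, the transgelins TAGLN and TAGLN2, the calponins CNN2 and CNN3, and the tropomyosins TPM1 and TPM2. They were chosen by name, as actin and smooth muscle contractile genes, from 60609 gene identifiers in each file. Earlier results of these data were known when they were chosen. Messenger RNA was sequenced from 3 wild-type HEK293 libraries and 3 STAT5B knockout HEK293 libraries. The knockout was made with CRISPR/Cas9, and clones with both copies of STAT5B mutated were picked by DNA sequencing and Western blot. STAT5B is a transcription factor that cytokine and growth hormone receptors switch on. All cells grew in the same medium with serum, with no treatment named, although the sample names of both groups carry the word Sham, which the labels do not explain.

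Actin monomers polymerise into filaments that give a cell its shape, let it crawl and, with myosin, let it contract. ACTB and ACTG1 encode the cytoplasmic beta and gamma actins of nearly every cell, whereas ACTA2 and ACTG2 encode the alpha and gamma actins of smooth muscle. Transgelins, calponins and tropomyosins bind along the filament, where they bundle it, tune its use by myosin or protect it from severing. Many of these genes are known targets of serum response factor (SRF), which binds the CArG box and works with the cofactors MRTFA and MRTFB, whose activity follows the pool of free actin monomer.

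The 4 actin coding sequences are shown at their start, where the isoforms are known to differ most, because ACTB and ACTG1 are the closest pair in coding sequence. The stretches run from the start codon through the same aligned codons, in GENCODE 29, and capitals mark the bases that differ from ACTB or have no counterpart in it.
ACTB: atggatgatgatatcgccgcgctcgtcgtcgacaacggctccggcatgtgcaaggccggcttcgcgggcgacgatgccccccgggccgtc
ACTG1: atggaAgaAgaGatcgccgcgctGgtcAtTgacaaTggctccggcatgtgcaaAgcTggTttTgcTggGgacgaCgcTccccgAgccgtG
ACTA2: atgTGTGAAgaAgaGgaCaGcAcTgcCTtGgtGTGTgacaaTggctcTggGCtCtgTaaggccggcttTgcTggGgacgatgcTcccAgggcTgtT
ACTG2: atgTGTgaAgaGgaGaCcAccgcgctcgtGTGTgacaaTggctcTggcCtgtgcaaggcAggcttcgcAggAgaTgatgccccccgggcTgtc
In these stretches ACTG1 had 17 such bases, ACTG2 20 and ACTA2 32. Over the whole coding sequence ACTB and ACTG1 were identical at 91.3% of 1125 aligned bases, with a longest identical run of 59 bases. In their longest principal transcripts, 28.3% of the 31-base words of ACTB and 18.6% of those of ACTG1 were also found in another gene, against 2.71% and 0% of their 75-base words. ACTB and ACTA2 were identical at 81.8%, ACTB and ACTG2 at 84.1%, and ACTA2 and ACTG2 at 84.7%. The other families were further apart, with 79.0% for TPM1 and TPM2, 70.1% for TAGLN and TAGLN2, and 61.9% for CNN2 and CNN3.

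Depth was 17494958 to 21099813 estimated counts per library, with 22363 to 23110 genes above 0. The targeted gene, STAT5B, had 70.1, 64.6 and 69.4 counts per 1000000 (CPM, on TMM-scaled library sizes) in the wild-type libraries, against 63.1, 61.8 and 60.5 in the knockout ones. Its mRNA was 1.10-fold lower in the libraries labelled knockout (log2 fold change -0.14, SE 0.047, edgeR quasi-likelihood adjusted p = 0.0468). The fall was larger with effective-length offsets, at -0.22 (edgeR adjusted p = 0.128). It was smaller with length-trend offsets, at -0.119 (edgeR adjusted p = 0.082). On log2(TPM + 1) and log2(TPM + 0.1) it was -0.295 and -0.304 (limma adjusted p = 0.0844 and 0.083). The median of all genes itself moved to -0.059 and -0.067 on these scales, so relative to it the fall was smaller than these values. The means were 32.1 ± 3.35 TPM in the wild type and 25.95 ± 2.20 TPM in the knockout (SD, n = 3), with no overlap. The call ended with both kinds of length offset and on both log2 TPM scales. It also ended with no low-count filter, the replicate block (edgeR adjusted p = 0.062 and 0.0554), the 1.2-fold minimum (1) and DESeq2 (0.0759). Leaving out any single library but wild-type replicate 2 ended it too. The edit itself and the protein are not analysed here. Of 10 genes taken as typical of HEK293, 9 had a mean of at least 1 TPM (transcripts per 1000000, a level per length), and the summed level of the list was 1031 to 1064 TPM in the wild type and 911.6 to 929.9 TPM in the knockout. The neurofilament gene NEFM made up most of that gap, with 221.9 to 237.6 TPM against 90.03 to 105.6 TPM, and the part of this difference in the results was not tested. The labels say neither how many clones the 3 knockout libraries come from nor whether libraries of a group are separate cultures, and a p-value therefore reflects the spread of these libraries alone. Differences between picked clones and loss of STAT5B cannot be told apart, and in bulk RNA neither can fewer cells of a type and less RNA per cell.

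Of the 10 genes, 9 had enough counts to be tested. ACTA2, TAGLN2 and CNN3 rose in the knockout, ACTG1 and CNN2 fell, and ACTB, TAGLN, TPM1 and TPM2 did not pass. The changes were 2.09-fold for ACTA2, 1.41-fold for TAGLN2 and 1.29-fold for CNN3, and ACTG1 and CNN2 were at 0.832 and 0.853 times their wild-type level. The 5 called genes are 55.6% of those tested, and over all 15958 tested genes 23.4% passed in either direction, 12.1% rising and 11.4% falling (edgeR quasi-likelihood F test, adjusted p under 0.05). The same 5 had CPM groups that did not overlap, as did 38.6% of all tested genes. Because the members were chosen with earlier results of these data known, their shares are not an unbiased sample to set beside all genes. The median log2 fold change was 0.061 over the 9 members and 0.0063 over all tested genes, and the median absolute log2 fold change was 0.23 against 0.14. Members of 1 family moved differently: the smooth muscle actin ACTA2 was higher while the cytoplasmic ACTG1 was lower, and CNN3 was higher while CNN2 was lower. Pseudogenes named after ACTB, ACTG1, TAGLN2 and CNN2 held at most 0.532% of their parent's counts in any library, and adding them changed no member's call.

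By level per length, the members spanned from ACTG1 and ACTB, with means of 2843 ± 81.3 and 2635 ± 54.8 TPM in the wild type (SD, n = 3), to ACTG2, which was almost unread. TAGLN2 (192 TPM) and CNN3 (150.4 TPM) followed the cytoplasmic actins, then TPM1 (49.2 TPM), CNN2 (27.1 TPM), TPM2 (10.2 TPM), ACTA2 (3.16 TPM) and TAGLN (1.08 TPM). Neighbours in this order did not overlap in the wild-type libraries. The order was the same in the knockout except that ACTB stood above ACTG1, and there the ranges of these neighbours overlapped. There the lowest TPM2 library (5.61 TPM) also lay below the lowest ACTA2 library (5.93 TPM).

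**Figure D1:**
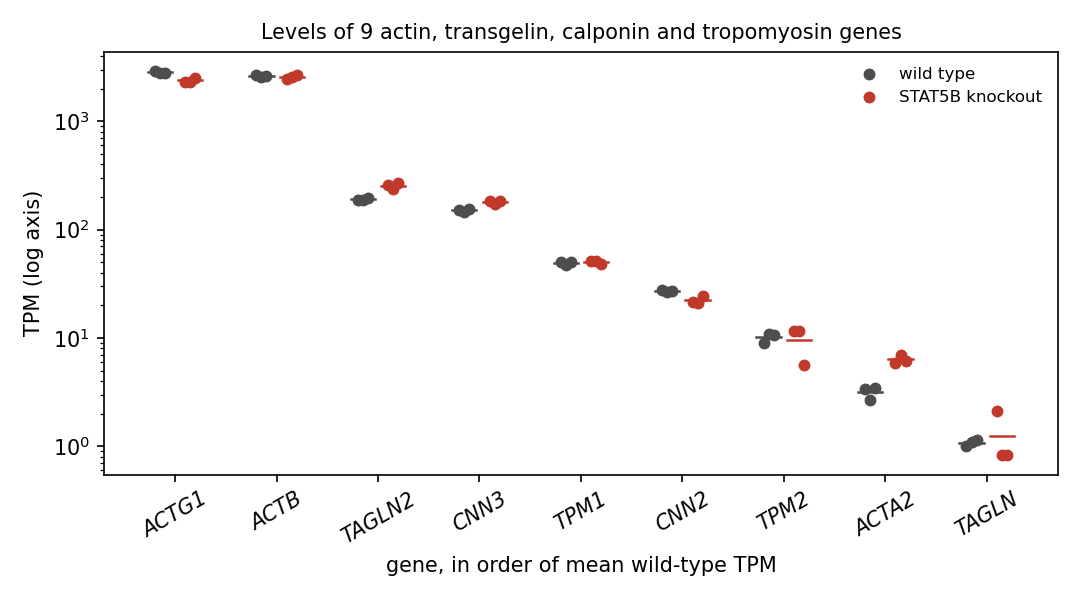
TPM on a log axis for the 9 tested genes, ordered by mean level in the wild type, with 1 point per library and a line at the mean of the 3 libraries of a group. ACTA2, TAGLN2 and CNN3 sit higher in all 3 knockout libraries, ACTG1 and CNN2 lower, and the groups of the other genes overlap.

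ACTB, on the minus strand at chr7:5527147-5563784 (hg38, ENSG00000075624.16), did not pass the test. Its level was 2683, 2575 and 2646 TPM in the wild type and 2457, 2585 and 2680 TPM in the knockout, so the groups overlapped throughout. In CPM the means were 2474 ± 46.8 and 2584 ± 99.6 (SD, n = 3), a log2 fold change of 0.063 with a 95% interval of -0.0100 to 0.14 (edgeR adjusted p = 0.207). On log2(TPM + 1) ACTB was at -0.034, on a scale where the median of all genes itself moved to -0.059, so relative to that median its value was not lower. ACTB ranked 34 to 41 among all genes by TPM across the 6 libraries.

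ACTG1, the other cytoplasmic actin (minus strand, chr17:81509971-81523847, ENSG00000184009.12), fell. Its level was 2936, 2783 and 2811 TPM in the wild type and 2317, 2324 and 2530 TPM in the knockout. The highest knockout library stayed below the lowest wild-type library. The CPM means were 2761 ± 74.7 and 2298 ± 147 (SD, n = 3), and its log2 fold change was -0.27 (SE 0.042, 95% interval -0.35 to -0.18, edgeR adjusted p = 4.20e-04). By TPM it was the 29th to 33rd most abundant gene in the wild-type libraries and the 41st to 48th in the knockout libraries.

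Because ACTB and ACTG1 are read from the same library, their ratio does not depend on library scaling. ACTG1 over ACTB in TPM was 1.09, 1.08 and 1.06 in the wild-type libraries, against 0.943, 0.899 and 0.944 in the knockout libraries. Gamma actin mRNA was thus the more abundant of the pair in all 3 wild-type libraries and the less abundant in all 3 knockout libraries. The means were 1.08 ± 0.016 and 0.929 ± 0.026 (SD, n = 3), with a two-sided exact permutation p of 0.1, the smallest that 3 against 3 allows (adjusted p = 0.15 over 3 ratios). The ratio of estimated counts gave the same order, with 1.13, 1.12 and 1.10 against 0.876, 0.863 and 0.927. Summed over ACTB, ACTG1, ACTA2, ACTG2, ACTA1 and ACTC1, actin mRNA was 5623, 5362 and 5461 TPM in the wild type and 4781, 4917 and 5217 TPM in the knockout, again without overlap. On log2(TPM + 1) the median of all genes itself moved to -0.059, so relative to it this fall was smaller. ACTB and ACTG1 held 0.537%, 0.514% and 0.522% of the estimated counts in wild-type libraries, against 0.463%, 0.485% and 0.511% in knockout libraries.

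The effective length of ACTG1, the length in bases by which counts are scaled to TPM, also differed between the groups. It was 1590.2, 1585.0 and 1573.4 bases in the wild type and 1430.0, 1470.5 and 1508.1 bases in the knockout, a mean 7.16% shorter. ACTB stayed within 1524.5 to 1539.4 bases in all 6 libraries. Groups without overlap in effective length were found for 11.7% of tested genes, and a shortening at least as large as that of ACTG1 for 13.0%. Among 257 genes with a mean of at least 500 CPM only 5 shortened that much, ACTG1 itself included. With the effective lengths as offsets the fall of ACTG1 was -0.16 (edgeR adjusted p = 0.021), and against a 1.2-fold minimum change it did not pass (adjusted p = 1). The part of this shift in the lower ACTG1 count was not tested beyond that offset.

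**Figure D2:**
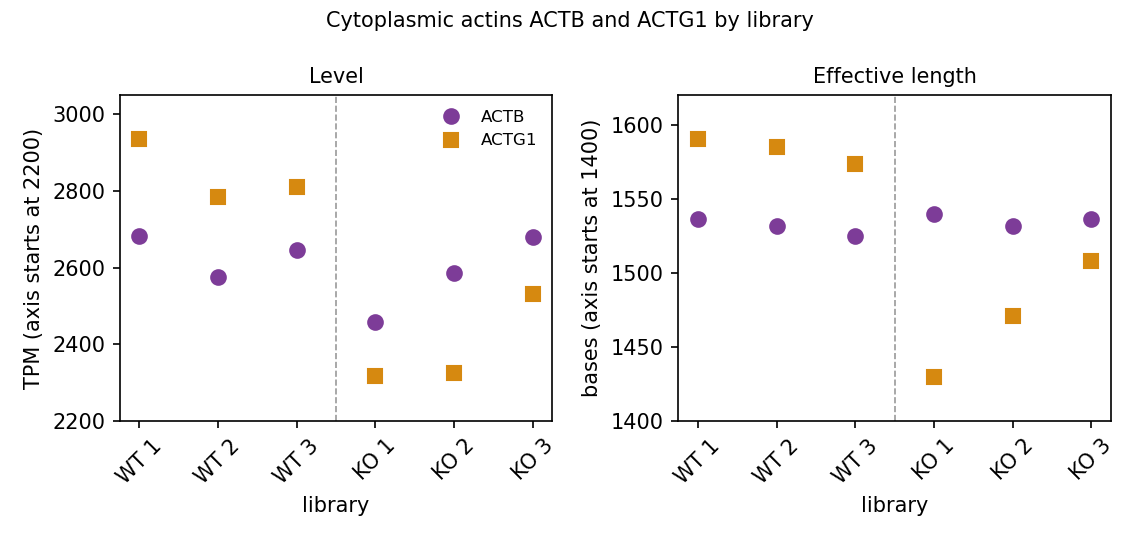
The 2 cytoplasmic actins in each library: level in TPM on the left and effective length in bases on the right, on axes that do not start at 0. ACTG1 lies above ACTB in the 3 wild-type libraries and below it in the 3 knockout libraries in both panels, while the ACTB effective length hardly moves.

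ACTA2, the alpha actin of vascular smooth muscle and of contractile fibroblasts (minus strand, chr10:88935074-88991339, ENSG00000107796.13), was the member with the largest change and a low level. It had 35.9, 33.4 and 39.5 estimated counts in the wild-type libraries, against 60.9, 90.7 and 71.8 in the knockout libraries. Per length this was 3.37, 2.66 and 3.46 TPM against 5.93, 6.93 and 6.17 TPM. All 3 knockout libraries lay above all 3 wild-type libraries.

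In CPM the ACTA2 means were 1.91 ± 0.16 and 3.98 ± 0.47 (SD, n = 3), a log2 rise of 1.06 (SE 0.20, 95% interval 0.63 to 1.49, edgeR adjusted p = 0.00163). The rise passed in 18 of 18 alternative analyses, from 0.82 to 1.15 on the log2 scale. As a share of the TPM of the 6 actins, the smooth muscle actins ACTA2 and ACTG2 made up 0.0613%, 0.0495% and 0.0634% in wild-type libraries, against 0.124%, 0.149% and 0.118% in knockout libraries. The difference of 0.0724 percentage points had the smallest exact two-sided permutation p that the design allows, 0.1 (adjusted p = 0.15). ACTA2 therefore stayed a trace beside the cytoplasmic actins in both groups.

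Genes on the opposite strand overlap ACTA2, and whether the counting used strand is not known here. FAS, the death receptor, overlaps the start of the annotated ACTA2 gene and rose as well, from 121, 150 and 120 counts to 166, 182 and 157 (log2 fold change 0.40, edgeR adjusted p = 0.0291). STAMBPL1, a deubiquitinase gene, did not pass (0.085, adjusted p = 0.535), and the antisense gene ACTA2-AS1 had 1 to 6 counts in every library. In the longest principal ACTA2 transcript, 26.7% of all 75-base words were also found in ACTA2-AS1, and none in FAS, STAMBPL1 or any other gene. How far these genes share reads with ACTA2 was not tested.

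ACTG2, the gamma actin of visceral smooth muscle (plus strand, chr2:73892314-73919865, ENSG00000163017.14), was read 1, 0 and 0 times in the wild-type libraries, against 0, 2 and 0 times in the knockout libraries. It was not tested, and no difference was detectable at this depth. Other genes of mature smooth muscle were as scarce: the smooth muscle myosin MYH11 reached at most 0.211 TPM, calponin CNN1 0.53 TPM and desmin (DES) 0.049 TPM in any library. Of 10 smooth muscle and pericyte markers 3 had a mean of at least 1 TPM (RGS5, NOTCH3 and LMOD1), none was at 0 in all 6 libraries, and their summed level was 12.1 to 16.2 TPM in the wild type and 14.4 to 20.96 TPM in the knockout. Of 7 fibroblast markers only COL1A1 had a mean of at least 1 TPM, and the list summed to 5.58 to 6.84 and 5.39 to 6.62 TPM. The part of these markers in the ACTA2 rise was not tested.

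TAGLN2, the transgelin of non-muscle cells that stabilises actin filaments (minus strand, chr1:159918107-159925732, ENSG00000158710.14), was the called member with the smallest p. Its level was 189.0, 188.8 and 198.1 TPM in the wild type and 259.0, 239.1 and 268.1 TPM in the knockout. The groups lay far apart beside the spread within each. In CPM the means were 163.3 ± 4.04 and 230.8 ± 9.91 (SD, n = 3), a log2 rise of 0.50 (SE 0.037, 95% interval 0.42 to 0.58, edgeR adjusted p = 1.39e-06). The rise passed in 18 of 18 alternatives, from 0.41 to 0.53.

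TAGLN, the smooth muscle transgelin also called SM22-alpha (plus strand, chr11:117199321-117204782, ENSG00000149591.17), did not pass. Its estimated counts, 20, 15.7 and 30 in wild-type libraries against 19, 26 and 21.1 in knockout libraries, overlapped. The log2 fold change was 0.032 with a 95% interval of -0.62 to 0.68 (edgeR adjusted p = 0.955), so changes of the size seen for TAGLN2 lie inside the interval. With single libraries left out its value ran from -0.15 to 0.26, so it has no settled sign. Its TPM of 1.02, 1.09 and 1.14 against 2.10, 0.830 and 0.825 followed an effective length that varied 2.89-fold between libraries. The end of TAGLN overlaps PCSK7, a proprotein convertase gene on the other strand, which fell (-0.25, edgeR adjusted p = 0.00767), and 17.6% of the 75-base words of the longest principal TAGLN transcript were also found in it.

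CNN3, the acidic calponin of non-muscle tissues (minus strand, chr1:94896949-94927278, ENSG00000117519.16), rose. It had 151.0, 144.5 and 155.5 TPM in the wild type and 183.4, 172.1 and 184.9 TPM in the knockout, with no overlap. The CPM means were 147.7 ± 2.99 and 191.1 ± 4.08 (SD, n = 3), so the log2 rise was 0.37 (SE 0.033, 95% interval 0.30 to 0.44, edgeR adjusted p = 6.08e-06). CNN3 shared no 75-base word with another gene and passed in 18 of 18 alternatives, from 0.26 to 0.39.

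CNN2, the neutral calponin (plus strand, chr19:1026581-1039068, ENSG00000064666.15), fell, by a smaller and less steady amount. It had 27.8, 26.6 and 26.9 TPM in the wild type and 21.3, 20.9 and 24.5 TPM in the knockout. The third knockout library lay nearest to the wild type, and the groups did not overlap. In the longest principal CNN2 transcript 12.5% of the 75-base words were also found in AC011558.1, a gene model on the opposite strand with 0 to 2 counts per library. In CPM the means were 29.9 ± 0.29 and 25.5 ± 2.39 (SD, n = 3), and the log2 fold change was -0.23 (SE 0.070, 95% interval -0.38 to -0.079, edgeR adjusted p = 0.0286). This call ended in 9 of 18 alternatives. Leaving out wild-type replicate 1, 2 or 3 gave adjusted p of 0.0752, 0.0669 and 0.0728, and leaving out knockout replicate 1 or 2 gave 0.130 and 0.0936, against 0.00491 without knockout replicate 3. Effective-length offsets gave 0.151, log2 TPM 0.0580 and 0.0567 at pseudocounts of 1 and 0.1 (limma), and the 1.2-fold minimum 1.

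TPM1, a tropomyosin gene of muscle and non-muscle isoforms (plus strand, chr15:63042632-63071915, ENSG00000140416.21), did not pass. Its level was 50.2, 47.1 and 50.3 TPM in the wild type and 51.3, 51.0 and 48.2 TPM in the knockout. The log2 fold change was 0.061 with a 95% interval of -0.070 to 0.19 (edgeR adjusted p = 0.518). Its effective length did not overlap between the groups, with 1292.5 to 1366.0 bases in the wild type and 1215.1 to 1286.5 bases in the knockout, a mean 4.39% shorter.

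TPM2, beta tropomyosin (minus strand, chr9:35681992-35690121, ENSG00000198467.15), depended on 1 library. It had 8.95, 10.9 and 10.6 TPM in the wild type and 11.7, 11.6 and 5.61 TPM in the knockout, where the third library stood apart at 57 counts against 126 and 132. The log2 fold change was 0.0034 with a 95% interval of -0.47 to 0.47 (edgeR adjusted p = 0.995), and it was 0.27 without knockout replicate 3 (adjusted p = 0.237), so no direction can be given. The ratio of TPM2 to TPM1 in TPM was 0.178, 0.232 and 0.210 against 0.227, 0.228 and 0.116, a difference of -0.016 (two-sided exact permutation p = 0.8, adjusted p = 0.8) that turned to 0.0206 without that library.

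The members lie on 9 chromosomes, with TAGLN2 and CNN3 both on chromosome 1. There 35.8% of 1574 tested genes rose and 4.83% fell, against 9.45% and 12.1% of 14384 tested genes elsewhere. Beside the 25 tested genes on each side, TAGLN2 (0.50) had neighbours with a median log2 fold change of 0.21, of which 26 of 50 rose and 0 fell at the edgeR threshold (30 and 0 at an unadjusted p under 0.05, and 21 and 0 by DESeq2). CNN3 (0.37) had neighbours with a median of 0.17, of which 16 rose and 1 fell. TAGLN2 was the 5th highest of the 51 genes of its stretch and CNN3 the 9th highest, so each stood toward the top of a stretch that was itself raised.

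ACTG1 lay in a stretch of chromosome 17 with a median of -0.17, where 17 of 50 neighbours fell and 0 rose at the same edgeR threshold (24 and 0 at an unadjusted p under 0.05, and 14 and 0 by DESeq2), and it was the 21st lowest of 51. ACTA2 and CNN2 had neighbours near 0, with medians of -0.031 and -0.022. ACTA2 was the highest of the 51 genes of its stretch, and of the 21 and 101 genes with 10 or 50 neighbours on each side, and CNN2 was the 7th lowest. The stretches around TAGLN (-0.0043), TPM1 (-0.017) and TPM2 (-0.0082) had medians near 0 and calls in both directions. That around ACTB, itself at 0.063, had a median of 0.065, and 7 of 50 neighbours rose and 6 fell. The part of these shifted stretches in the changes of TAGLN2, CNN3 and ACTG1 was not tested.

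**Figure D3:**
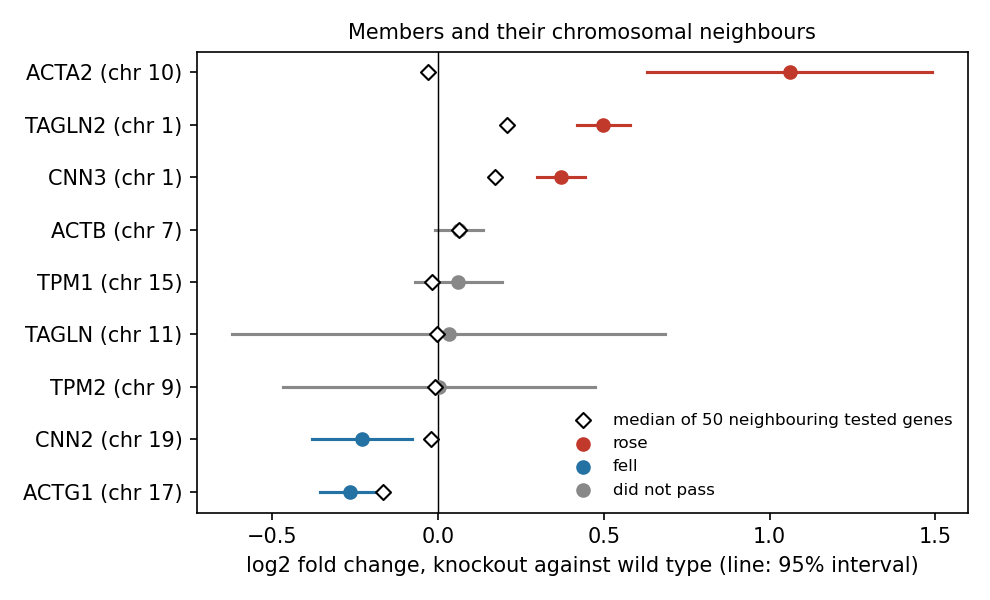
Log2 fold change, knockout against wild type, of the 9 tested members with 95% intervals. Open diamonds give the median of 50 neighbours, the 25 tested genes on each side of a member along its chromosome. TAGLN2, CNN3 and ACTG1 have diamonds shifted to their own side (0.21, 0.17 and -0.17), while those of ACTA2 and CNN2 lie near 0.

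Promoter windows from RefSeq (GRCh38.p14, 250 bases before to 50 after the start) were found for 8 of the 10 members, in 13 windows. They were searched on both strands for the CArG box, the SRF motif of CC, then A or T at the next 6 bases, then GG, and for TTCNNNGAA, the motif that STAT5 proteins are known to bind. An exact CArG box was in the windows of ACTG1, CNN2 and ACTG2. That is 3 of 13 member windows, beside 1.29% of 35116 windows in the table. Near matches were not counted, nor looked for in the windows of the other members. The ACTA2 stretch below holds ccctatatgg and ccttgtttgg, each 1 base off the CArG pattern. TTCNNNGAA was in 1 member window, the inner one of ACTA2, and in 7.66% of all windows. The stretches below are shown because they hold these matches, in capitals, read 5′ to 3′ on the gene's strand and ending at the start site, or 3 bases past it for ACTA2.
ACTG1 (chr17:81512800-81512929, minus): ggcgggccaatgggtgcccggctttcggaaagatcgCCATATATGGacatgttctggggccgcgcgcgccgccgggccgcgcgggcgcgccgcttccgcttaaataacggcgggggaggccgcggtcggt
CNN2 (chr19:1026478-1026607, plus): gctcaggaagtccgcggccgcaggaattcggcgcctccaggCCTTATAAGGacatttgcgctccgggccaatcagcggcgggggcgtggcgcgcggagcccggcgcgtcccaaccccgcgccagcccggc
ACTG2 (chr2:73892878-73893007, plus): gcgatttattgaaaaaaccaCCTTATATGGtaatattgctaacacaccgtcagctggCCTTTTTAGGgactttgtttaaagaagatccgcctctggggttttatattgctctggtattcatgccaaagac
ACTA2 (chr10:88952771-88952903, minus): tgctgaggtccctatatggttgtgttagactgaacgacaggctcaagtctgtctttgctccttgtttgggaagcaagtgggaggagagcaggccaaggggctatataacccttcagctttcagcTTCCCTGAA
The ACTG1, ACTG2 and ACTA2 stretches lie inside the annotated span of their gene, upstream of an inner start site, and that of CNN2 spans the annotated start. ACTG2 held 2 exact CArG boxes and was almost unread. ACTG1 and CNN2 held 1 each and fell. ACTA2, with the near CArG matches named above, rose. TAGLN2, CNN3, TPM1 and TPM2 had no exact match to either motif in their windows. ACTB and TAGLN had no window and were not searched. Any link between motif and direction was not tested. These matches describe the letters of the windows, and no binding was measured.

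Among the 7 paralogs outside the members, only the tropomyosins TPM3 and TPM4 had enough counts to be tested. TPM3, on chromosome 1, had 303.3, 309.9 and 301.7 TPM in the wild type and 371.9, 357.6 and 362.1 TPM in the knockout, and rose (log2 fold change 0.31, SE 0.031, edgeR adjusted p = 1.35e-05). TPM4 had a log2 fold change of 0.11 and did not pass (adjusted p = 0.0545). ACTA1, the skeletal muscle actin, had 5.25 to 12 counts in every library, and ACTC1, ACTBL2, TAGLN3 and CNN1 had almost none.

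A wider set of 137 genes that work with the members was sorted into lists of family paralogs, smooth muscle genes, SRF targets, filament turnover, nucleation, crosslinking and myosin II. Of the 124 tested, 33 rose (26.6%) and 19 fell (15.3%), with a median log2 fold change of 0.043, beside 12.1% and 11.4% of all tested genes. On chromosome 1, 10 of 13 rose and 1 fell, beside 35.8% and 4.83% of all tested genes there. Away from it 23 of 111 rose and 18 fell, beside 9.45% and 12.1% of all tested genes elsewhere. These lists too were chosen with earlier results known, so the same limit holds for their shares. Against a 1.2-fold minimum 0 of the 124 rose and 2 fell by edgeR (12 and 4 at an unadjusted p under 0.05), where DESeq2 without a minimum called 30 and 17. Of the 52 called genes, 16 kept the call in every alternative, that minimum aside, among them TPM3, MYL6, SMTN, MYH9, CAPZA1, CAP1, PFN1, ARPC5, ARPC3, CTTN, ENAH, RHOC and MYH14. The other called genes named from these lists lost it with effective-length or length-trend offsets or on log2 TPM. SRF, SSH1, WASF1 and FMNL3 also lost it by DESeq2, SRF and SSH1 without the low-count filter, and some with single libraries left out, which are given with each list.

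In the list of smooth muscle genes, which includes 4 members, 4 of 13 tested genes rose (30.8%) and 1 fell (7.69%), with a median of 0.032. The shares over all tested genes were 12.1% and 11.4%. Beside ACTA2 the risers were the myosin light chain MYL6 (0.23, edgeR adjusted p = 2.25e-04), the receptor NOTCH3 (0.45, adjusted p = 0.00276) and leiomodin LMOD1 (0.65, adjusted p = 0.00713). LMOD1 lies on chromosome 1. Smoothelin (SMTN), a filament protein of contractile smooth muscle, fell (-0.46, adjusted p = 6.91e-04). MYL6 is expressed in nearly all cells, LMOD1 had only 1.47 TPM in the wild type, the smooth muscle light chain MYL9 was at 0 counts in all 6 libraries, and caldesmon (CALD1) did not pass (0.0079).

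Of 27 tested SRF factors and targets, 7 rose (25.9%) and 4 fell (14.8%), with a median of 0.012. Over all tested genes these shares were 12.1% and 11.4%. Of the 7 risers 2 lie on chromosome 1, where 35.8% of tested genes rose. The risers with the smallest p were the protease subunit CAPN2 (0.33, chromosome 1), the filament bundler LIMA1 (0.25) and filamin FLNC (0.21). On the log2 scale, myosin heavy chain MYH9 fell by 0.22, filamin FLNA by 0.24, the glucose transporter SLC2A3 by 1.88 at a level of only 0.904 TPM in the wild type, and SRF itself by 0.13 (edgeR adjusted p = 0.0338). The SRF call did not hold without wild-type replicate 1, 2 or 3 or without knockout replicate 1 or 2. The cofactors MRTFA (-0.034) and MRTFB (-0.064) did not pass.

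Of 30 tested filament turnover genes 9 rose and 2 fell, with a median of 0.061. Among all tested genes 12.1% rose and 11.4% fell. The list's 4 tested genes on chromosome 1 all rose, as did 35.8% of all tested genes there. Away from it 5 of 26 rose and 2 fell, beside 9.45% and 12.1% of all tested genes elsewhere. The risers with the smallest p were the capping protein CAPZA1 (0.32), the cyclase-associated protein CAP1 (0.27) and profilin PFN1 (0.28), which binds actin monomers. PFN1 went from 631.3 ± 19.6 to 764.5 ± 12.6 CPM (SD, n = 3, edgeR adjusted p = 5.35e-05). The slingshot phosphatases that activate cofilin fell, SSH2 by 0.42 and SSH1 by 0.15, and the SSH1 call did not hold without wild-type replicate 2 or 3 or knockout replicate 1 or 2.

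Among 24 tested nucleation genes 5 rose (20.8%) and 4 fell (16.7%), beside 12.1% and 11.4% of all tested genes. Their median was -0.033, and of the called genes ARPC5 and WASF2 lie on chromosome 1. Subunits of the ARP2/3 complex, which starts branched filaments, went both ways: ARPC5 (0.37), ARPC3 (0.30), ACTR3 (0.15) and ARPC2 (0.11) rose, and ACTR2 fell by 0.11. The activator WASF1 rose by 0.12, while its relative WASF2 fell by 0.15, cortactin CTTN by 0.17 and formin FMNL3 by 0.28. On log2(TPM + 1), ARPC2 (-0.0192) and WASF1 (-0.00202) were negative but above the median of all genes on that scale (-0.059), so relative to it their sign did not turn. Calls did not hold without wild-type replicate 1, 2 or 3 or knockout replicate 2 or 3 for ARPC2, wild-type replicate 2 or 3 or knockout replicate 1 or 2 for ACTR2, wild-type replicate 1 or 2 or knockout replicate 1 or 2 for WASF1, and any library but wild-type replicate 2 for FMNL3. The FMNL3 call also ended with the replicate block, limma-voom and DESeq2.

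Crosslinkers and stress fibre proteins were split, with 5 rising (19.2%) and 6 falling (23.1%) of 26 tested and a median of -0.0096. Over all tested genes 12.1% rose and 11.4% fell, and of the risers here ENAH lies on chromosome 1. ENAH (0.24), which promotes filament elongation, the plastins PLS3 (0.21) and PLS1 (0.19), palladin PALLD (0.32) and fascin FSCN1 (0.28) rose, PLS1 with a negative value on log2(TPM + 1) (-0.0715), slightly below the median of all genes on that scale (-0.059). The fallers with the smallest p were the spectrin SPTBN1 (-0.23), FLNA (-0.24) and the talin TLN1 (-0.19). The call did not hold without wild-type replicate 3 or knockout replicate 2 or 3 for PLS1, and without wild-type replicate 1 or 2 or knockout replicate 1 or 3 for FSCN1.

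Among 19 tested genes of non-muscle myosin II and its regulators 5 rose (26.3%) and 4 fell (21.1%), with a median of 0.064. The shares of all tested genes were 12.1% and 11.4%. The light chains MYL6 (0.23), MYL12B (0.22) and MYL12A (0.18) and the GTPases RHOC (0.39, chromosome 1) and RHOB (0.19) rose. The heavy chains MYH14 and MYH9 fell, as did the kinases ROCK1 (-0.14) and ROCK2 (-0.12). MYH14 showed the largest of these changes, from 45.6 ± 3.08 to 25.8 ± 0.79 CPM (SD, n = 3, log2 fold change -0.82, SE 0.062, edgeR adjusted p = 1.49e-06), and passed in 18 of 18 alternatives. Calls did not hold without wild-type replicate 1 for MYL12A, without wild-type replicate 1, 2 or 3 or knockout replicate 3 for RHOB, ROCK1 and ROCK2, and also without knockout replicate 1 for RHOB and knockout replicate 2 for ROCK1.

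**Figure D4:**
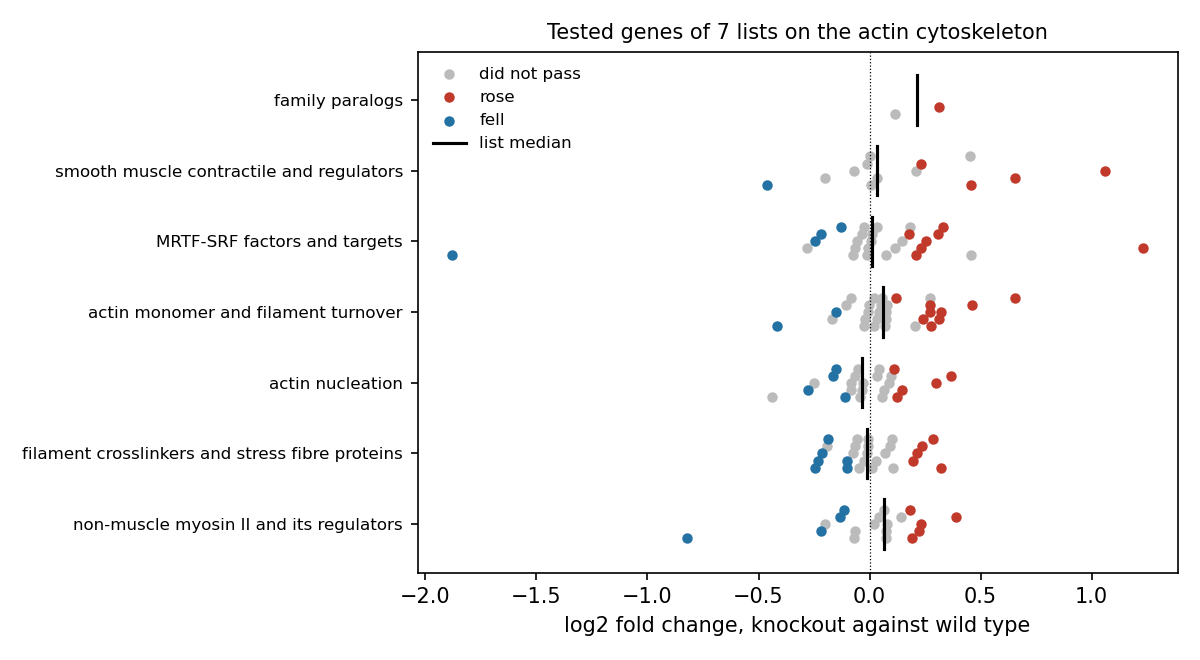
Log2 fold change, knockout against wild type, of every tested gene in the 7 lists, with red for genes that rose, blue for genes that fell, grey for those that did not pass and a bar at each list's median. The medians other than that of the 2 paralogs lie between -0.033 and 0.064, with called genes on both sides.

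The genes most like TAGLN2 and ACTG1 across the 6 libraries, among 11519 genes with a mean of at least 5 CPM, were taken by Pearson's r of log2 CPM. For TAGLN2 these were the small GTPase ARF1 (0.9986), the mitochondrial ribosome gene MRPL9 (0.9985) and the translocon-associated gene SSR2 (0.9985), all on chromosome 1 as well. For ACTG1 they were RNASEH2C (0.9981) on chromosome 11, MED24 (0.9978) on chromosome 17 and CHST3 (0.9957) on chromosome 10. With 6 libraries in 2 groups, any gene with a steady difference between the groups scores high, and 551 genes reached 0.95 with TAGLN2 and 351 with ACTG1.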

How the data were processed

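Messenger RNA libraries from 3 wild-type and 3 STAT5B knockout HEK293 samples were grouped by the genotype label. The submitters' processing notes list FastQC, fastp, DRAGEN, Picard and the build hg38, without versions. No source used here gives the annotation release, the read length or the use of strand. Per the file headers, the deposited files give a length, an effective length, a TPM and an estimated count per gene. The deposited estimated counts (7.12% to 7.64% not whole) were rounded for count tests. The deposited TPM served for levels between genes and for 2 alternatives. The deposited effective lengths, in bases, were a description and an offset. Of 60609 identifiers 60340 matched a name table, 42005 with a symbol, and 58502 were placed by GENCODE 29 on the same build.

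The test was edgeR 4.0.16 under R 4.3.3, after filterByExpr at a minimum count of 10 and a total of 15, with TMM, the quasi-likelihood F test and Benjamini-Hochberg adjustment over 15958 genes at 0.05, with 44651 genes untested. The script was tested on simulated data. The biological coefficient of variation was 4.43%. Replicates differed by more than sampling noise (chi-square per degree of freedom 2.45 to 7.50, on genes of 20 or more counts). Ratios were tested by two-sided exact permutation (scipy 1.17.1). Neighbours were the 25 tested genes on each side. Words of 31 and 75 bases of the longest principal transcript were searched in all other GENCODE transcripts.

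Alternatives were RLE scaling, no and a stricter (1 CPM) count filter, effective-length and length-trend offsets, a replicate block, a 1.2-fold minimum change, each replicate left out, limma-voom and limma 3.58.1 on log2(TPM + 1) and log2(TPM + 0.1), DESeq2 1.42.0, pseudogene counts added to their parent and, for the ratios and neighbours, counts and other windows. Counting away from chromosome 1 was added after seeing the data. The members and lists were chosen with earlier results of these data known. Named were all members and paralogs, from each list all genes called in a direction where at most 5 were, otherwise the 3 with the smallest p, and the 3 genes most like the riser and the faller with the smallest p. MRTFA, MRTFB, CALD1, MYL9, the overlapping genes and, for its sign, RDX were named besides. Promoter sequences are from RefSeq, coding sequences from GENCODE. Protein sequences were not used here.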

Additional observations from a re-analysis of the deposited data

How the results depend on the processing

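Of the members, ACTA2, TAGLN2 and CNN3 passed in 18 of 18 alternatives and ACTG1 in 17 of 18, failing the 1.2-fold minimum, while CNN2 passed in 9. ACTB and TPM1 passed in none of 18, and TPM2 in none of 18 with the other sign in 10. TAGLN passed in none of 17, and DESeq2 gave no adjusted p for it. The number of members that rose was 3 throughout, or 1 counted away from chromosome 1. The number that fell was 2, but 1 with effective-length offsets or on log2(TPM + 1) or log2(TPM + 0.1), 0 against the 1.2-fold minimum (edgeR, also 0 at an unadjusted p under 0.05, against 2 by DESeq2 without a minimum), and 1 to 2 with a replicate left out.

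Of the related genes, 33 rose and 19 fell. The counts were 21 and 5 with effective-length offsets, 10 falling with length-trend offsets, 0 and 2 against the 1.2-fold minimum (edgeR, 12 and 4 at an unadjusted p under 0.05), 12 and 12 on log2(TPM + 1) and on log2(TPM + 0.1), and 25 to 30 and 12 to 17 with a replicate left out. Over all genes 1924 rose and 1818 fell, against 1065 and 685 with effective-length offsets, 155 and 140 against the 1.2-fold minimum, 488 and 1135 on log2(TPM + 1), 483 and 1139 on log2(TPM + 0.1), and 1339 to 1789 and 1279 to 1786 with a replicate left out. On log2 TPM the median of all genes moved to -0.059 and -0.067. Single signs turned on log2(TPM + 1) and log2(TPM + 0.1) for ARPC2 (-0.0192 and -0.0193), WASF1 (-0.00202 in both) and PLS1 (-0.0715 and -0.0732), and with effective-length offsets for RDX (0.00922). Relative to the median of all genes on log2 TPM, ARPC2 and WASF1 kept their sign.

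With a replicate left out the ACTG1 to ACTB difference ran from -0.159 to -0.135, the smooth muscle actin share from 0.0631 to 0.0785 percentage points and the TPM2 to TPM1 difference from -0.0352 to 0.0206. With 10 and 50 neighbours on each side the medians were 0.0713 and -0.0438 for ACTA2, -0.0334 and -0.0483 for TAGLN, 0.10 and 0.0338 for TPM1, and with 10 neighbours -0.104 for TPM2. For ACTB the medians with 10 and 50 were 0.0862 and 0.0894, and in the wider stretch 19 of 94 rose and 7 fell. The cause of these shifts was not tested.

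The correlations of deviations do not settle whether replicate numbers pair the samples. Same-numbered libraries had 0.004, 0.104 and 0.042, and differently numbered ones -0.098 to 0.052. Wild-type replicates 1 and 2 correlated best with the knockout library of their own number, and wild-type replicate 3 with knockout replicate 1. With the replicate block 3 members rose and 2 fell, 33 and 17 related genes, and 1887 and 1773 of all genes, and no member's call changed, while the calls of STAT5B (adjusted p = 0.0554), FMNL3 and RDX ended. Depth limits ACTG2, TAGLN, TPM2 and ACTA2, which had at most 132 counts in a library.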
